A study of Solanum lycopersicum with 12 samples.

Results

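The tomato metallothionein genes MT2 and MT4 were followed in roots under salt on spotted clone arrays read in 2 colours. Members were all spots that the platform annotation names MT2 or MT4, which are 12 spots, or 4 clones of 3 adjacent spots each. MT2 has 3 clones, called here by their first spots: MT2 clone 7225 (spots 7225 to 7227), MT2 clone 8869 (spots 8869 to 8871) and MT2 clone 9751 (spots 9751 to 9753). MT4 has 1 clone, at spots 2149 to 2151. They are 4 of 79 named clones, 2 of 38 named genes and 4 of 3456 clones in all. The 3 MT2 clones carry the same gene ID but 3 separate sequence records. By gene ID, both genes are protein-coding under the same symbols in RefSeq (assembly SLM_r2.1) and do not neighbour each other, with 2597 annotated genes between them.

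Metallothioneins are small cysteine-rich proteins whose thiol groups bind metal ions such as copper and zinc. In plants they are known for metal homeostasis and for scavenging reactive oxygen species. Salt stress is known to raise reactive oxygen species in roots, where catalases and peroxidases break peroxides down.

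Roots came from ZS-5, labelled salt-sensitive, and LA2711, labelled salt-tolerant, after 30 min, 2 hr or 6 hr of salt. On each array, RNA of treated roots was hybridised together with control RNA, and each of the 6 conditions has 2 arrays with the dyes exchanged. The labels state neither the salt dose nor the age and number of seedlings behind an RNA, nor whether times shared a control. A pair of arrays counts as 1 replicate, so that p-values reflect only how far the conditions spread, in part perhaps for technical reasons.

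The deposited value of a spot is a log2 ratio of the treated and the control RNA. All 12 arrays run the same way, but the numerator is not settled. If the underlying ratio was Cy5 over Cy3, a positive value means more transcript in the control, and if it was Cy3 over Cy5, more in the treated root. The text therefore speaks of a positive and a negative side. Values are centred on the median of the array over the 3018 clones measured on all 12 arrays, unless they are called uncentred. Ratios hold no expression level, so root marker genes could not be checked. In whole roots, fewer cells of a type and less RNA per cell cannot be told apart.

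All 144 member spot values were measured, and 0 lay at the ratio limits. The SD among the 3 spots of a clone had a median over the arrays of 0.066 to 0.12, depending on the clone. A spot of MT2 clone 8869 stood off on 1 array, ZS-5 at 30 min in replicate 1, where this SD reached 0.623. Over all tested clones the 2 arrays of a condition correlated with r = 0.814 to 0.979.

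MT2 clone 8869 lay on the negative side on all 12 arrays. With the array of treated RNA in Cy5 first, as in all such pairs of values here, ZS-5 gave -1.38 and -1.62 after 30 min, then -2.62 and -2.54 after 2 hr, then -3.20 and -2.996 after 6 hr. LA2711 gave -1.49 and -1.21 after 30 min, then -2.20 and -2.22 after 2 hr, then -3.12 and -2.78 after 6 hr. The genotypes overlap at 30 min and 6 hr. The spread of whole arrays also grew, with a median absolute deviation of 0.48 to 0.85 at 30 min and 2.68 to 3.15 at 6 hr. Counted from the most negative of the 3018 clones, the mean of this clone ranked 91, 390 and 493 at the 3 times in ZS-5. In LA2711 it ranked 118, 366 and 487, so against all clones it became less extreme with time. On the linear scale the mean ratio went from 0.353 to 0.167 to 0.117 in ZS-5 and from 0.392 to 0.216 to 0.129 in LA2711. Both arrays were past 2-fold on the negative side in each of the 6 conditions. The share of all 3018 clones that were so was 5.9% in ZS-5 at 30 min, then 28.1% and 37.3%, and 4.51% in LA2711 at 30 min, then 27% and 35.2%.

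MT2 clone 9751 began on the other side. ZS-5 gave 1.36 and 0.68 after 30 min, then -1.52 and -1.56 after 2 hr, then -1.48 and -1.50 after 6 hr. LA2711 gave 0.31 and 0.45 after 30 min, then -0.86 and -0.85 after 2 hr, then -1.29 and -1.19 after 6 hr. All 4 arrays of 30 min were positive and all 8 later arrays negative. Between 2 hr and 6 hr the mean moved by 0.05 in ZS-5 and by -0.39 in LA2711, or by -0.81 and -1.01 uncentred.

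In ZS-5 MT2 clone 7225 had nearly the opposite course, whereas in LA2711 both of these clones were positive at 30 min. The genotypes of MT2 clone 7225 parted at 30 min. ZS-5 gave -2.15 and -2.14 after 30 min, then 0.77 and 1.29 after 2 hr, then 1.49 and 1.96 after 6 hr. LA2711 gave 0.54 and 0.99 after 30 min, then 0.50 and 0.71 after 2 hr, then 2.23 and 2.67 after 6 hr. The arrays of ZS-5 at 30 min are negative, and the other 10 are positive. In each of the 6 conditions this clone read lower with treated RNA in Cy5 than in Cy3, the difference being between -0.0081 and -0.52. Each condition mean holds both orientations equally. A fit with dye orientation as a covariate therefore cannot change these means and is no check on the dye difference.

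MT4 stayed nearer 0 at the early times. ZS-5 gave 0.48 and 0.68 after 30 min, then -0.06 and -0.26 after 2 hr, then 2.31 and 2.10 after 6 hr. LA2711 gave -0.09 and -0.43 after 30 min, then 0.12 and 0.21 after 2 hr, then 0.89 and 0.70 after 6 hr. The ZS-5 arrays of 6 hr lie above all other arrays of this clone. How many of all clones do the same was not counted. Whole arrays spread most widely in that condition, with a median absolute deviation of 3.15 and 3.07. Counted from the most positive of the 3018 clones, the MT4 mean ranked 663 there. Uncentred, the 6 hr mean was 1.36 ± 0.54 (SD, n = 2 arrays) in ZS-5 and -0.18 ± 0.54 in LA2711, so the positive mean of LA2711 at 6 hr does not hold uncentred.

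**Figure D1:**
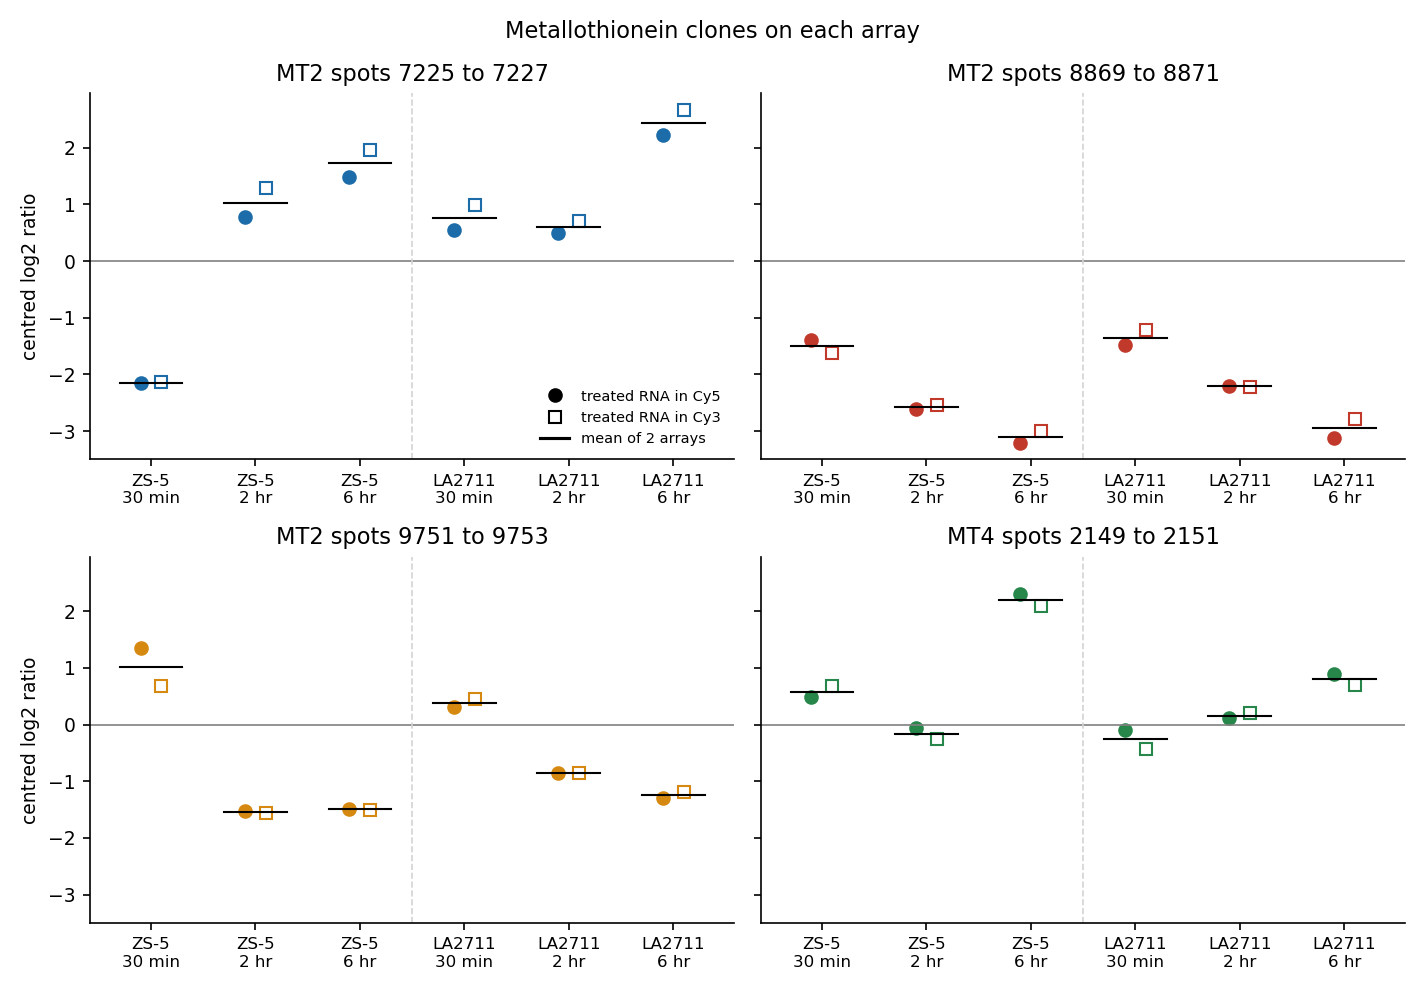
Centred log2 ratio (y) of each metallothionein clone in the 6 conditions (x), with filled circles for arrays with treated RNA in Cy5, open squares for treated RNA in Cy3 and a line at the mean of the 2 arrays. MT2 clone 8869 is negative on all 12 arrays, and MT2 clone 7225 is negative in ZS-5 at 30 min and positive on the other 10 arrays.

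The response at each time was tested as the mean of both genotypes. At 30 min 1 of the 4 clones was called (adjusted p under 0.05), when 18.2% of all clones were called and 8.75% of all clones on its side. This was MT2 clone 8869, at -1.43 ± 0.20 (SE, limma adjusted p = 0.00128) and negative on 4 of 4 arrays, a call lost against a 2-fold null (limma adjusted p = 0.521). Positive on 4 of 4 arrays, MT2 clone 9751 lay at 0.70 ± 0.25 and did not pass (limma adjusted p = 0.0862), although it did uncentred (0.80, limma adjusted p = 0.0383). It also passed after quantile normalisation (1.06, limma adjusted p = 0.0123) and with all arrays scaled to the same median absolute deviation (1.42, limma adjusted p = 0.0066). With the 12 arrays as separate samples it passed too (limma adjusted p = 0.00496). For MT2 clone 7225 the mean of -0.69 ± 0.54 (limma adjusted p = 0.404) joins -2.15 in ZS-5 and 0.77 in LA2711. MT4 lay at 0.16 ± 0.34 (limma adjusted p = 0.775).

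At 2 hr 2 of the 4 clones were called, both negative, when 68.9% of all clones were called and 36.6% on the negative side. MT2 clone 8869 lay at -2.40 ± 0.20 (SE, limma adjusted p = 8.34e-06) and MT2 clone 9751 at -1.20 ± 0.25 (limma adjusted p = 0.00257). Without ZS-5 at 2 hr the latter was at -0.85 and did not pass (limma adjusted p = 0.0619), nor did it against a 2-fold null (limma adjusted p = 0.585). MT2 clone 7225, positive on 4 of 4 arrays, lay at 0.82 ± 0.54 and did not pass (limma adjusted p = 0.205). It passed without the 30 min arrays of either genotype (limma adjusted p = 0.0183 each time), which enter this mean only through the shared spread. MT4 lay at -0.00049 ± 0.34 (limma adjusted p = 0.999).

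At 6 hr all 4 clones were called, 2 on each side, but so were 87.3% of all clones, 44.9% positive and 42.4% negative. That is 1356 against 1279 clones, and 882 against 1590 uncentred or 701 against 1191 after quantile normalisation. The negative members were MT2 clone 8869, at -3.03 ± 0.20 (SE, limma adjusted p = 9.27e-07), and MT2 clone 9751, at -1.37 ± 0.25 (limma adjusted p = 0.00063). The positive ones were MT2 clone 7225, at 2.09 ± 0.54 (limma adjusted p = 0.00527), and MT4, at 1.50 ± 0.34 (limma adjusted p = 0.00232). Both positive calls were lost uncentred, at 1.17 (limma adjusted p = 0.14) and 0.59 (limma adjusted p = 0.171), and after quantile normalisation and scaling too. The call of MT2 clone 9751 was lost after scaling (-0.65, limma adjusted p = 0.068), and 3 of the 4 calls were lost against a 2-fold null (limma adjusted p = 0.0623 to 0.133), that of clone 8869 being kept. Without ZS-5 at 6 hr the MT4 mean was 0.80 (limma adjusted p = 0.0642).

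Over all 6 conditions 1 of the 4 clones was called, against 59% of all clones and 31.4% on its side. MT2 clone 8869 had a mean of -2.28 ± 0.30 (SE of 6 conditions, limma adjusted p = 0.00173), negative in 6 of 6 conditions. It was called in all 28 alternatives run, with limma adjusted p-values up to 0.0309. MT2 clone 7225 lay at 0.74 ± 0.55 (limma adjusted p = 0.25) and was positive in 5 of 6 conditions. MT2 clone 9751 lay at -0.62 ± 0.39 (limma adjusted p = 0.19) and was negative in 4 of 6. Without ZS-5 at 30 min both of these passed, at 1.32 (limma adjusted p = 0.0173) and -0.95 (limma adjusted p = 0.0469). MT4 lay at 0.55 ± 0.35 (limma adjusted p = 0.186).

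Within ZS-5 1 member was called, against 5.57% of all clones and 2.62% on the negative side, and within LA2711 0 were, against 4.24% and 1.86%. MT2 clone 8869 lay at -2.39 ± 0.47 in ZS-5 (SE, limma adjusted p = 0.0377) and at -2.17 ± 0.47 in LA2711 (limma adjusted p = 0.0556). These means over 3 times count a change with time as spread. In ZS-5 the call was lost uncentred (-2.68, limma adjusted p = 0.0787), without its 2 hr (-2.30, limma adjusted p = 0.287) or 6 hr arrays (-2.04, limma adjusted p = 0.235), and without LA2711 at 2 hr (limma adjusted p = 0.107). In LA2711 a call was gained without ZS-5 at 30 min (limma adjusted p = 0.0352) and without replicate 2 of LA2711 at 30 min (limma adjusted p = 0.0495). It was also gained after quantile normalisation (-2.77, limma adjusted p = 0.00297) and after scaling (-2.52, limma adjusted p = 0.0266). With the 12 arrays as separate samples it was gained as well (limma adjusted p = 0.00014).

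**Figure D2:**
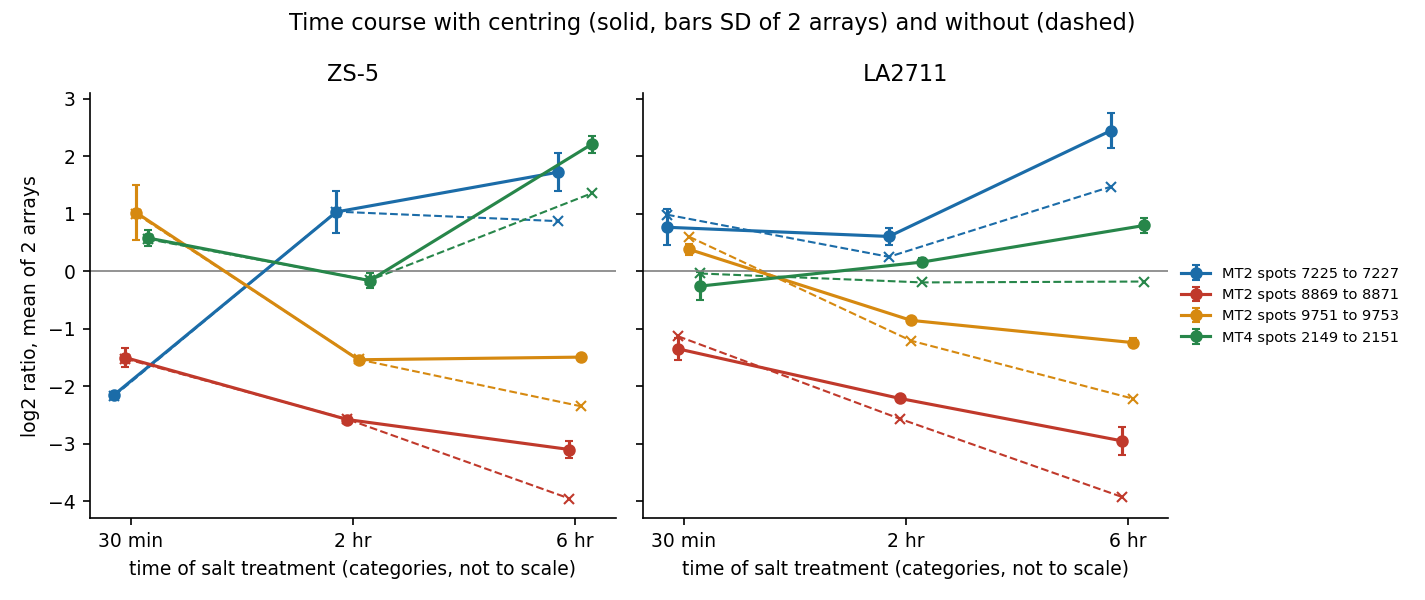
Log2 ratio (y, mean of 2 arrays) of the 4 clones at 30 min, 2 hr and 6 hr (x, evenly spaced) in ZS-5 and LA2711, solid with centring and SD bars, dashed without centring. At 6 hr the dashed lines lie below the solid ones, and MT4 in LA2711 moves from 0.80 to -0.18.

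Change over time was tested with genotype as a covariate. From 30 min to 6 hr all 4 clones were called, 2 on each side, against 77.4% of all clones, 41.6% positive and 35.9% negative. That is 1255 against 1082 clones, and 492 against 1350 uncentred or 285 against 523 after scaling each array to the same spread. MT2 clone 9751 changed by -2.07 ± 0.37 (SE, limma adjusted p = 0.00131) and MT2 clone 8869 by -1.60 ± 0.28 (limma adjusted p = 0.00118), or uncentred by -3.08 and -2.61. The change of clone 8869 turned to 1.30 (limma adjusted p = 0.0249) after quantile normalisation and to 1.80 (limma adjusted p = 0.0348) with all arrays scaled to the same median absolute deviation. MT2 clone 7225 changed by 2.78 ± 0.67 (limma adjusted p = 0.00647), made up of 3.87 in ZS-5 and 1.68 in LA2711. MT4 changed by 1.34 ± 0.42 (limma adjusted p = 0.0201), made up of 1.63 in ZS-5 and 1.05 in LA2711. Uncentred, these were 1.76 and 0.33, and neither passed (limma adjusted p = 0.136 and 0.53). Neither passed after quantile normalisation (limma adjusted p = 0.267 and 0.371) or after scaling (limma adjusted p = 0.404 and 0.484). The MT4 call was also lost without ZS-5 at 6 hr (0.76, limma adjusted p = 0.254) and without LA2711 at 30 min (1.20, limma adjusted p = 0.0635).

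The step from 30 min to 2 hr was called in 2 of the 4 clones, both negative, against 36.3% of all clones and 24.8% on the negative side. MT2 clone 9751 changed by -1.90 ± 0.37 (SE, limma adjusted p = 0.00576), made up of -2.56 in ZS-5 and -1.24 in LA2711. Without ZS-5 at 2 hr it changed by -1.46 (limma adjusted p = 0.0642). MT2 clone 8869 changed by -0.97 ± 0.28 (limma adjusted p = 0.0296). That call was lost without any 1 condition other than LA2711 at 2 hr (limma adjusted p = 0.0809 to 0.162), and the change turned to 0.98 after quantile normalisation and 1.003 after scaling. MT2 clone 7225 changed by 1.51 ± 0.67 and did not pass (limma adjusted p = 0.118). Its mean joins 3.18 in ZS-5, a step that 13 of 3018 clones exceeded on the positive side, and -0.16 in LA2711. It passed without 30 min of LA2711 (2.89, limma adjusted p = 0.000328) or replicate 2 of it (1.62, limma adjusted p = 0.0431), and without 6 hr of either genotype (limma adjusted p = 0.00342 each time).

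From 2 hr to 6 hr 1 member was called, against 43.3% of all clones and 24.1% on its positive side. MT4 changed by 1.50 ± 0.42 (SE, limma adjusted p = 0.0244), made up of 2.37 in ZS-5 and 0.64 in LA2711. The call was lost uncentred (0.76, limma adjusted p = 0.188), after quantile normalisation (0.81, limma adjusted p = 0.704) and after scaling (0.68, limma adjusted p = 0.703). It was lost too without ZS-5 at 2 hr (0.78) and without ZS-5 at 6 hr (0.93). MT2 clone 7225 changed by 1.27 ± 0.67 (limma adjusted p = 0.154), which passed without 30 min of either genotype (limma adjusted p = 0.0118 each time) and without LA2711 at 6 hr (1.53, limma adjusted p = 0.0466). MT2 clone 8869 changed by -0.63 ± 0.28 (limma adjusted p = 0.102), and by -1.37 with a call uncentred (limma adjusted p = 0.0115). MT2 clone 9751 changed by -0.17 ± 0.37 (limma adjusted p = 0.737).

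Where the tolerant and the sensitive genotype respond differently was asked next. At 30 min MT2 clone 7225 lay 2.91 log2 units higher in LA2711 than in ZS-5, a 7.52-fold difference between the ratios. Of the 3018 clones 0 had a larger difference towards LA2711, and 1 had a larger one in size, an unnamed clone with -2.97. The median size over all clones was 0.336. With treated RNA in Cy5 the difference was 2.69, with treated RNA in Cy3 it was 3.13, and uncentred it was 3.15. All 4 arrays put the genotypes on opposite sides of 0, as they did in this direction for 5.9% of all clones. A single time has 1 replicate a genotype, so this difference has no test.

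At the later times the genotype difference of MT2 clone 7225 was -0.43 (2 hr) and 0.72 (6 hr). The 2 hr value was -0.79 uncentred and -0.69 or -0.17 without replicate 1 or 2 of ZS-5, and the 6 hr value lay between 0.49 and 0.96 with 1 array left out. The other MT2 clones differed less at 30 min, by 0.15 for clone 8869 and -0.64 for clone 9751, or by 0.39 and -0.40 uncentred. After scaling, the 30 min difference of clone 8869 was -1.18. For clone 8869 the difference was 0.37 at 2 hr and 0.15 at 6 hr, and for clone 9751 it was 0.69 and 0.25. Uncentred, these were 0.0065 and 0.027 for clone 8869 and 0.32 and 0.13 for clone 9751. MT4 differed by -0.84 at 30 min, with its genotypes on opposite sides on all 4 arrays, as for 3.98% of clones in that direction (-2.08 after quantile normalisation and -1.76 after scaling). At 2 hr it differed by 0.32, again on opposite sides, as for 2.15% of clones. At 6 hr MT4 differed by -1.41, a size that 62 of the 3018 clones exceeded. This last difference was -1.43 with treated RNA in Cy5, -1.40 with treated RNA in Cy3 and -1.53 uncentred, but -0.68 after quantile normalisation and -0.58 with all arrays scaled to the same median absolute deviation.

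Tested over the 3 times, 0 members were called for LA2711 minus ZS-5 and 0% of all clones were, with 196 of 3018 at an unadjusted limma p under 0.05. MT2 clone 7225 differed by 1.07 ± 0.55 (SE, limma adjusted p = 0.899) and MT4 by -0.64 ± 0.35 (limma adjusted p = 0.91). The others differed by 0.22 ± 0.23 (clone 8869) and 0.10 ± 0.30 (clone 9751), each with a limma adjusted p of 1.0. A difference that varies with time counts as spread in this test. With the 12 arrays taken as separate samples, 219 to 270 clones were called, among them 0 of the members.

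**Figure D3:**
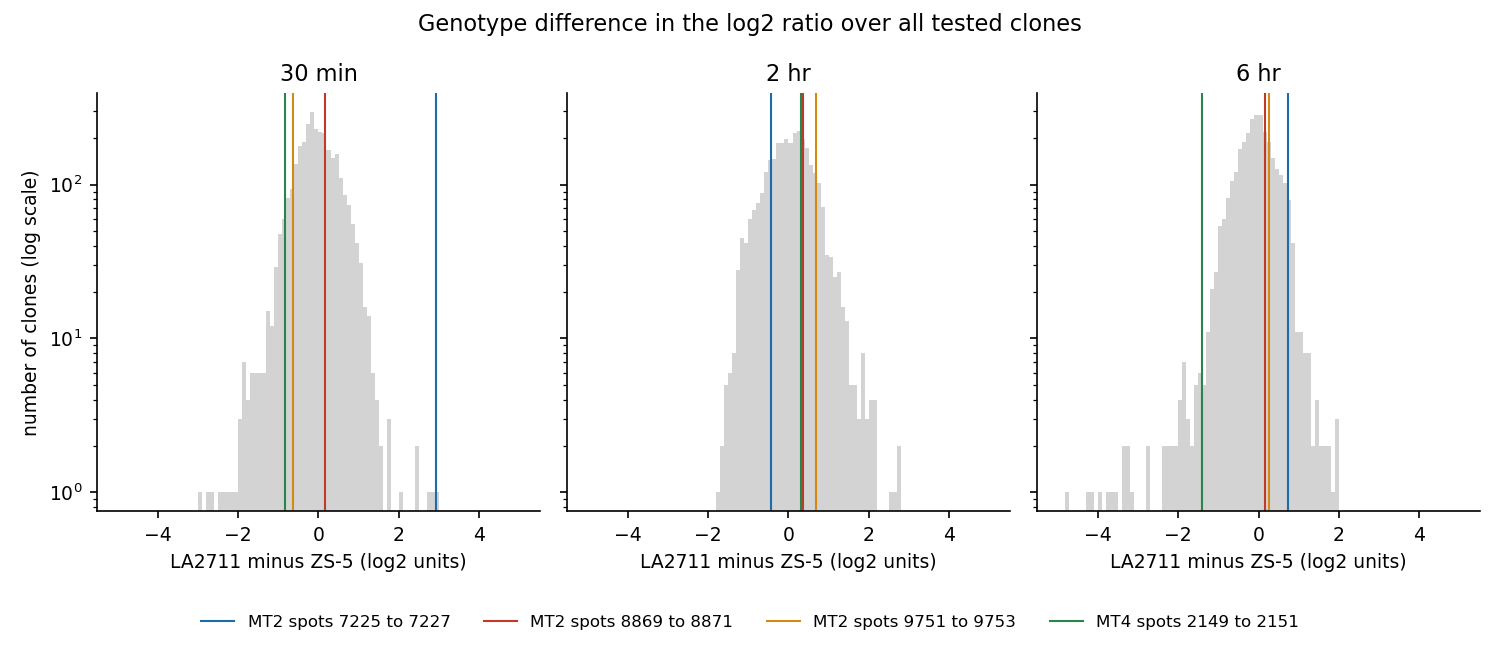
Number of clones (y, log scale) by the LA2711 minus ZS-5 difference in centred log2 ratio (x, log2 units) at 30 min, 2 hr and 6 hr over 3018 clones, with a coloured line for each metallothionein clone. At 30 min MT2 clone 7225 sits at the right edge, at 2.91, and at 6 hr MT4 sits left of most clones, at -1.41.

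The 3 MT2 clones did not report the same course. Over the 6 conditions clones 8869 and 9751 correlated with r = 0.917 (0.946 uncentred), while clone 7225 correlated with them at -0.742 and -0.816 (-0.509 and -0.684 uncentred). These are descriptions over 6 points that share their arrays. The difference of clone 8869 minus clone 9751 was negative in 6 of 6 conditions, at -1.66 ± 0.49 (SD) on average. A two-sided exact sign-flip permutation test gave p = 0.03125, the smallest that 6 conditions allow, and 0.0938 adjusted over 6 pairs of clones. Clone 7225 lay above clone 8869 in 5 of 6 conditions, by 3.02 ± 2.17 on average (exact permutation p = 0.0625, adjusted p = 0.125). It lay above clone 9751 in 5 of 6 conditions too, by 1.36 ± 2.52 (exact permutation p = 0.219, adjusted p = 0.262).

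MT4 lay above MT2 clone 8869 in 6 of 6 conditions, by 2.84 ± 1.48 (SD, exact permutation p = 0.03125, adjusted p = 0.0938). From MT2 clone 9751 it differed by 1.18 ± 1.62 (exact permutation p = 0.156, adjusted p = 0.234) and from MT2 clone 7225 by -0.18 ± 1.60 (exact permutation p = 0.844). No difference between clones passed after adjustment. The course of MT4 correlated with r = 0.251 to that of clone 7225, -0.621 to clone 8869 and -0.333 to clone 9751, and uncentred with -0.265, -0.285 and -0.111.

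Other genes with several clones on this array were set beside MT2. Of the 11 other named genes with at least 2 measured clones, 6 also had a pair of clones with r below 0. The median r among the clones of a gene was -0.742 for MT2 and ranged from -0.309 to 0.996 in the others, with 0.877 in the middle. The means of the MT2 clones over the 6 conditions spanned 3.02 log2 units, and 2 of the other genes, AOS and NAC1, spanned more, at 6.05 and 3.19. Whether the 3 MT2 clones detect the same transcript was not tested, as their sequences were not used here.

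**Figure D4:**
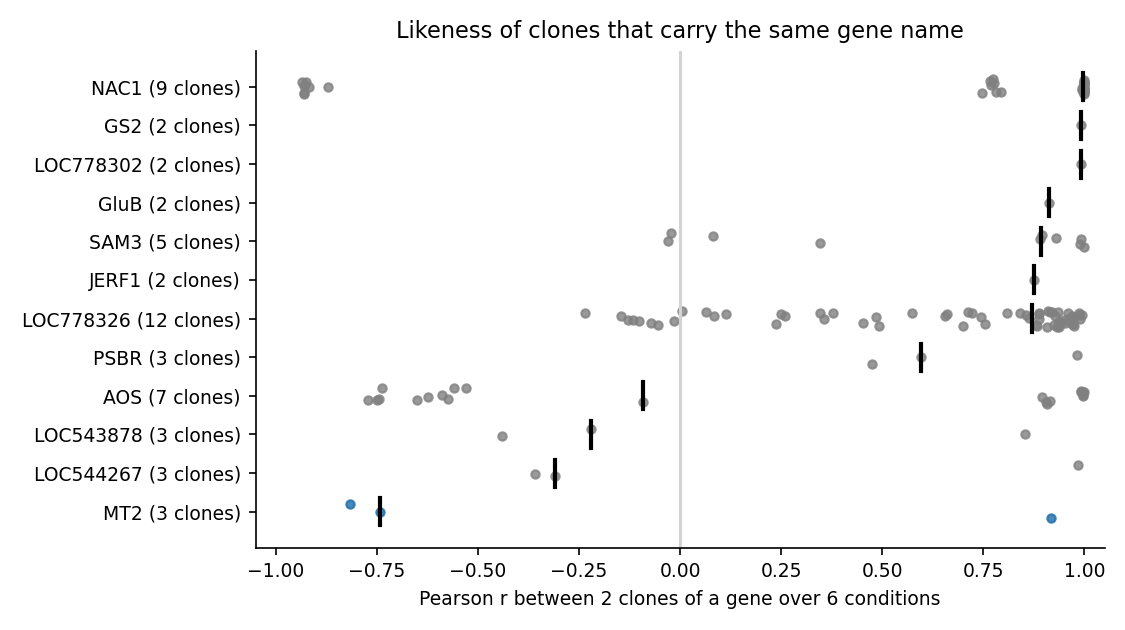
Pearson r over the 6 conditions (x) for every pair of clones that carry the same gene name, 1 row per gene, with a black tick at the median of the gene and points spread within a row so that they can be seen. The MT2 pairs lie at -0.816, -0.742 and 0.917.

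For each clone the 3 named clones of other genes with the most similar course over the 6 conditions were listed, as a description. Closest to MT2 clone 8869 was AAP2, an amino acid permease, with r = 0.998 (0.999 uncentred). The AAP2 means went from -0.96 to -1.99 to -2.61 in ZS-5 and from -0.80 to -1.71 to -2.36 in LA2711. AADC1B, an aromatic amino acid decarboxylase, followed with r = 0.982, and so did a clone of the transcription factor gene NAC1 (spots 4315 to 4317, r = 0.982). This clone of NAC1 was on the positive side at 30 min, at 1.29 and 1.09, where MT2 clone 8869 was negative. Of the 3017 other clones, 801 had a higher r to MT2 clone 8869 than MT2 clone 9751 had.

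Closest to MT2 clone 9751 were NP24-I, an osmotin-like protein (r = 0.978), and NAC1 clones at spots 4912 to 4914 (r = 0.976) and 3643 to 3645 (r = 0.973). Both NAC1 clones changed side after 30 min as it did, going in ZS-5 from 1.55 and 1.45 to -4.07 and -4.11 at 2 hr. NP24-I was negative in all 6 conditions.

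Closest to MT2 clone 7225 were gts1, a glutamine synthetase (r = 0.956), TCTP, the translationally controlled tumour protein (r = 0.946), and TIP, a tonoplast aquaporin (r = 0.90). Their uncentred r values were 0.962, 0.730 and 0.860. At 30 min these 3 lay at -0.61, -0.92 and -0.91 in ZS-5, against 0.17, -0.14 and 0.07 in LA2711. Closest to MT4 were 3 clones of SAM3, an S-adenosylmethionine synthetase gene, at spots 286 to 288 (r = 0.922), 3181 to 3183 (r = 0.866) and 8152 to 8154 (r = 0.849). Uncentred, these r values were 0.712, 0.646 and 0.586. Unlike MT4, all 3 SAM3 clones were positive in all 6 conditions.

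**Figure D5:**
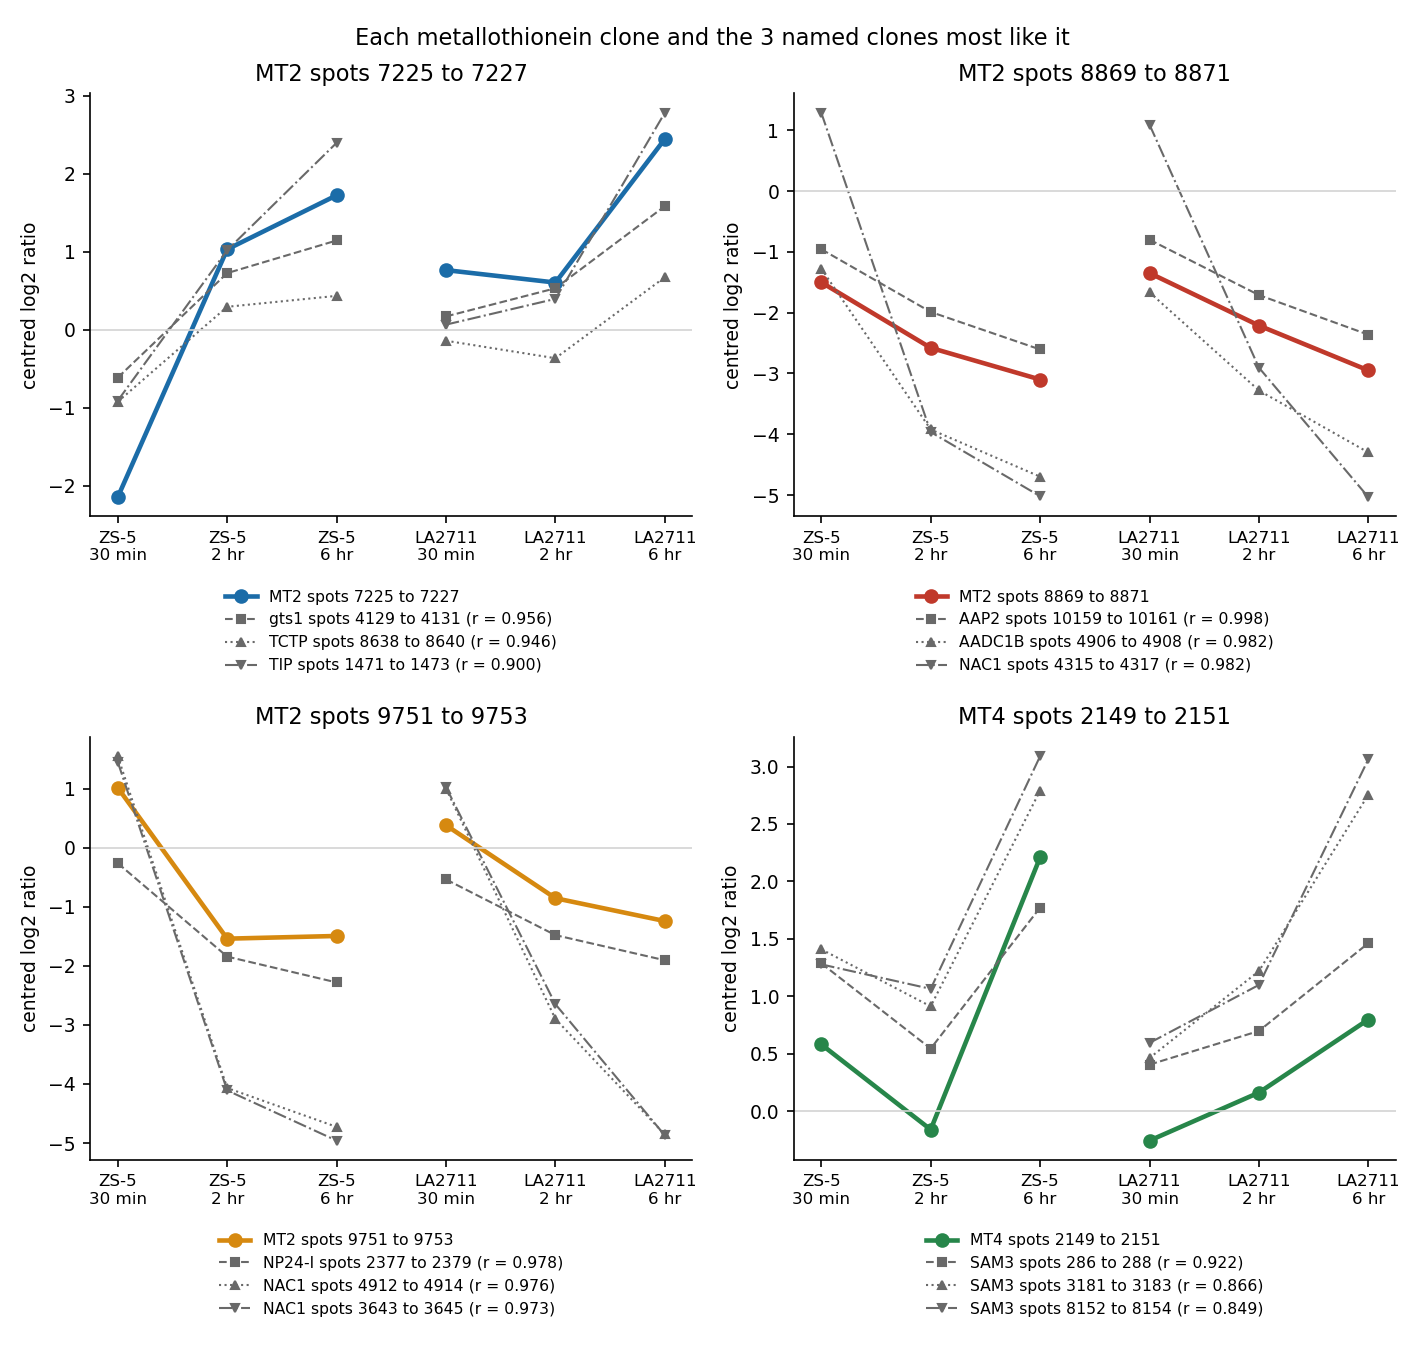
Centred log2 ratio (y) in the 6 conditions (x) of each metallothionein clone and of the 3 named clones of other genes with the highest Pearson r to it. AAP2 runs nearly parallel to MT2 clone 8869 (r = 0.998), and gts1, TCTP and TIP share the low 30 min value of MT2 clone 7225 in ZS-5 at smaller size.

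A list of 31 symbols of metal and redox handling had 4 on this array, MT2, MT4, the catalase gene cat1 and the peroxidase gene TPX2, with 6 clones in all. At 6 hr 4 of the 6 were called positive and 2 negative, when 44.9% and 42.4% of all clones were. The median of the 6 was 1.48 and that of the 4 members 0.07, against -0.04 over all clones, and each of these medians joins clones of both sides. Both non-members were positive, cat1 at 1.47 ± 0.32 (SE, limma adjusted p = 0.00175) and TPX2 at 2.21 ± 0.46 (limma adjusted p = 0.00144). The cat1 call was lost uncentred (0.55, limma adjusted p = 0.169) and against a 2-fold null (limma adjusted p = 0.132). Both were lost after quantile normalisation (0.49 and 0.94) and scaling (0.70 and 1.04). At 30 min 0 of the 6 were called positive and 2 negative, against 18.2% of all clones called and 8.75% negative, cat1 with -1.43 ± 0.32 (limma adjusted p = 0.0132) beside MT2 clone 8869. This cat1 call was lost against a 2-fold null. Without ZS-5 at 30 min cat1 was at -0.90 (limma adjusted p = 0.286). At 2 hr 1 was called positive and 2 negative, against 68.9% of all clones called and 36.6% negative. TPX2 was the positive one at 1.46 ± 0.46 (limma adjusted p = 0.0194). That call was lost uncentred (1.29, limma adjusted p = 0.0543), after quantile normalisation (1.43, limma adjusted p = 0.131) and after scaling (1.38, limma adjusted p = 0.237). It was lost too against a 2-fold null (limma adjusted p = 0.465) and without 2 hr of ZS-5 (1.53) or of LA2711 (1.39).

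From 30 min to 6 hr cat1 changed by 2.90 ± 0.38 (SE, limma adjusted p = 0.000268), a direction it shared with MT2 clone 7225 and MT4. The cat1 means went from -1.96 to -0.20 to 1.56 in ZS-5 and from -0.90 to 0.83 to 1.37 in LA2711. TPX2 changed by 1.21 ± 0.52 over the same interval and did not pass (limma adjusted p = 0.0651). It passed with the 12 arrays as separate samples (limma adjusted p = 0.00794). It also passed with some single arrays left out, such as replicate 2 of ZS-5 at 30 min (1.34, limma adjusted p = 0.0283). Without ZS-5 at 30 min the TPX2 change was 2.16, and uncentred it was 0.20 (limma adjusted p = 0.758). At 30 min its means were 2.15 in ZS-5 and -0.15 in LA2711, the reverse order of MT2 clone 7225.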

How the data were processed

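The arrays measured root RNA of salt-treated against control tomato seedlings. The deposited values are log2 ratios, 1 a spot and array. For scanner, background correction and normalisation the sources used here name nothing. With treated RNA in Cy3 the ratio, and with treated RNA in Cy5 its inverse, had 3 decimals for 100% of spots, so the authors turned the sign of 1 dye orientation before depositing the log2 ratios. Arrays held 9013 to 9900 measured spots of 10368. The 366 values at a ratio of 0.001 or its inverse were left out, the 3 spots of a clone averaged, the 3018 clones measured on all 12 arrays centred on each array's median, and each dye-swap pair averaged. Intensities were not used, so the number of arrays limits the precision.

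Over the 6 condition values, limma 3.58.1 (lmFit and eBayes, 2-sided, R 4.3.3) fitted all clones, with Benjamini-Hochberg adjustment over all of them and calls under 0.05. Time or genotype means share 1 spread, and differences take the other factor as a covariate. An SE is limma's moderated one. Pairs of clones were set against each other with an exact sign-flip test. The scripts were tested on simulated data. Named are the member clones, the 3 named clones of other genes with the highest r to each, and the list of metal and redox symbols. Members, lists and tests were chosen with earlier results of these data known. The 28 alternatives cover centring, quantile and spread scaling, spot averaging, ratio limits, the clone filter, arrays as separate samples, a 2-fold null, and each array or condition left out.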

Additional observations from a re-analysis of the deposited data

Results flagged for a closer look

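At 30 min MT2 clone 7225 lay on opposite sides of 0 in the genotypes on all 4 arrays, at 0.77 in LA2711 and -2.15 in ZS-5, a difference of 2.91. It did so uncentred too. The difference was not tested, since each genotype has 1 replicate at a time.

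MT4 also lay on opposite sides on all 4 arrays at 30 min, at -0.26 in LA2711 and 0.58 in ZS-5 (difference -0.84), and at 2 hr, at 0.16 and -0.16 (difference 0.32). Neither held uncentred, and neither difference was tested.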

How the results depend on the processing

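Over the 40 tests of member clones, 992 of 1104 alternative values kept their side and their call, among them 475 of 480 with 1 array left out. The rest lost the call (38), gained it (39) or changed side (35). The cause was not tested. The call of MT2 clone 8869 over all 6 conditions, at 2 hr and at 6 hr, and of MT2 clone 9751 from 30 min to 6 hr, held in every alternative run. The number of arrays limits the precision, and signal over background is not known here.

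Without centring, the change from 30 min to 6 hr lost its call for MT4 (0.33) and MT2 clone 7225 (1.76), the ZS-5 mean of the latter was -0.085 and the LA2711 mean of MT4 -0.14. After quantile normalisation these 4 values were 0.75, 2.26, -0.97 and -0.44, and with all arrays scaled to the same median absolute deviation 0.54, 1.81, -0.70 and -0.053. MT2 clone 8869 turned side under quantile normalisation and under scaling: 1.30 and 1.80 from 30 min to 6 hr, 0.98 and 1.003 from 30 min to 2 hr, 0.32 and 0.80 from 2 hr to 6 hr, and -0.013 and -0.43 for LA2711 minus ZS-5. MT2 clone 9751 turned to 0.33 and 0.45 from 2 hr to 6 hr, and under scaling to -0.049 for LA2711 minus ZS-5. After quantile normalisation MT4 lay at -0.043 over all conditions and -0.27 at 30 min. Its 2 hr mean, near 0, was 0.014 with the median of spots, 0.0020 with limit spots kept and 0.011 under scaling. TPX2 turned to -0.62 from 30 min to 6 hr under scaling. The 30 min genotype difference of MT2 clone 7225 was 5.76 after quantile normalisation and 5.95 under scaling.

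With 1 array or condition left out, over all 6 conditions MT2 clone 7225 ranged from 0.40 to 1.32 and MT2 clone 9751 from -0.95 to -0.44. At 30 min MT2 clone 7225 ranged from -2.15 to 0.77, MT4 from -0.26 to 0.58 and TPX2 from -0.15 to 2.15. At 2 hr MT4 ranged from -0.16 to 0.16 and cat1 from -0.20 to 0.83. The ZS-5 mean of MT2 clone 7225 ranged from -0.56 to 1.38 and the LA2711 mean of MT4 from -0.049 to 0.48. LA2711 minus ZS-5 ranged from -0.19 to 0.47 for MT2 clone 9751. MT4 ranged from 0.76 to 1.92 for 30 min to 6 hr and from -0.89 to 0.56 for 30 min to 2 hr, MT2 clone 9751 from -0.61 to 0.27 for 2 hr to 6 hr, and MT4 minus MT2 clone 7225 from -0.77 to 0.11.

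With the 12 arrays as separate samples MT4 over all conditions, at 0.55, was called (limma adjusted p = 0.0471), which counts each dye-swap pair as 2 samples. That setting also gained calls for MT2 clone 9751 at 30 min (limma adjusted p = 0.00496), MT4 in ZS-5 (limma adjusted p = 0.0332) and MT2 clone 8869 in LA2711 (limma adjusted p = 0.00014). From 30 min to 2 hr it gained MT2 clone 7225 (limma adjusted p = 0.0193). From 2 hr to 6 hr it gained MT2 clones 7225 (limma adjusted p = 0.0385) and 8869 (limma adjusted p = 0.00243). Repeat number and dye orientation coincide in every condition but ZS-5 at 30 min, whose dyes are numbered the other way. Deviations of the arrays numbered 1 correlated between conditions with r of -0.556 to 0.857 over 15 pairs, 10 of them above 0.1. The other pairs were negative and all involve ZS-5 at 30 min, so the sign of r went with dye orientation. Whether arrays with the same repeat number belong together cannot be told apart from a dye difference here. With the repeat number as a block (replicate block) the member values were the same, as they must be with both numbers in every condition. MT4 over all conditions, again at 0.55, was then not called (limma adjusted p = 0.0567, and 0.0573 with dye orientation as a covariate). The other gained calls stayed in both of these fits. With the block 269 clones were called for LA2711 minus ZS-5 against 0. Counts of called clones ranged over the alternatives from 167 to 2513 over all conditions (1782 as reported), 120 to 1702 at 30 min (550), 813 to 2467 at 2 hr (2078), 1619 to 2807 at 6 hr (2635), 0 to 2138 in ZS-5 (168), 0 to 1642 in LA2711 (128), 0 to 270 for LA2711 minus ZS-5 (0), 808 to 2589 from 30 min to 6 hr (2337), 628 to 2007 from 30 min to 2 hr (1096) and 0 to 2203 from 2 hr to 6 hr (1308). The share of positive calls among all calls moved from 31.7% to 11.6% (uncentred) and 21.5% (scaling) from 30 min to 2 hr, from 55.7% to 20.2% (uncentred) from 2 hr to 6 hr, and, uncentred, from 46.8% to 36% at 2 hr and from 53% to 78.5% in ZS-5. After quantile normalisation it was 35.8% at 2 hr, 33.4% at 30 min (52% as reported), 34.3% over all conditions (46.7%), 25.3% in LA2711 (56.2%) and 29.3% in ZS-5, and after scaling 40.9% in LA2711.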
